A study of Homo sapiens with 12 samples.

Results

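The response to BCT-100 was compared between 2 human glioblastoma cell lines, U87 and U373, by taking for every gene the change in U87 minus the change in U373. BCT-100 is arginase I carrying polyethylene glycol; arginase breaks arginine down to ornithine and urea. The 4 groups were U87 given 1 U/ml BCT-100, U87 given phosphate-buffered saline (PBS), U373 given 1 U/ml BCT-100 and U373 given PBS. RNA of all groups was taken after 72 h, both lines are labelled wild-type and were grown in the same serum-containing medium, and each group holds 3 libraries. All 12 libraries of the study entered the comparison. Of the 19824 entries kept from the deposited table, 13628 reached a value of 10 in 3 or more libraries and were tested. Of these, 11766 reached that value in at least 3 of the 6 libraries of each line and are called expressed in both lines. A further 398 had a mean under 1 over the U373 libraries, 363 had a mean under 1 over the U87 libraries, and 1101 lay between these limits. The labels do not say whether the libraries of a group came from separate cultures, so every p-value below reflects library-to-library spread alone, possibly technical in origin.

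Arginine is taken up by cationic amino acid transporters and can be remade from citrulline by argininosuccinate synthase (ASS1) and argininosuccinate lyase (ASL). A shortage of an amino acid leaves tRNAs uncharged, which activates the kinase GCN2, raises translation of the transcription factor ATF4 and turns on genes of amino acid synthesis, amino acid transport and tRNA charging. Glioblastoma lines differ in how much ASS1 they express, and enzymes that remove arginine have been studied as treatments for tumours that express little of it.

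Values are the deposited read counts, which the authors scaled by 1 factor per library. The depth recovered per library was 18.89 to 25.92 M reads, with column totals of 22101094 to 23433112. A response is the change from PBS to BCT-100 in log2(value + 1), a scale that understates the change of low genes, and the difference is the U87 response minus the U373 response. A gene was called when its adjusted p was under 0.05 in limma, with Benjamini-Hochberg adjustment over all genes tested. A difference called higher was more positive in U87, and one called lower was less positive in U87. Of the glial markers, GFAP averaged 1.37 with BCT-100 and 3.58 with PBS in U87, against 10041 with BCT-100 and 52216 with PBS in U373. The neural stem cell gene SOX2 was likewise at 0 and 0.652 in U87 (BCT-100 and PBS), against 1293 and 3934 in U373. Other glial and neural stem cell genes did not share this order. OLIG2 went the other way, at 108.4 and 20.59 in U87 (BCT-100 and PBS), against 9.803 and 0 in U373. AQP4 was at 0 with either treatment in U87 and at 0.707 and 0.614 in U373. VIM was high in both lines, at 70059 and 177117 in U87 and 41779 and 166871 in U373, as was CD44. The endothelial and erythroid markers and the epithelial markers each summed to at most 802.8 in any library. The leukocyte list held mostly the lysosomal gene CD68, and the leukocyte gene AIF1 was listed at 0 in every library. Mitochondrially encoded mRNA took 3.66% ± 0.056 of the values with BCT-100 and 5.92% ± 0.120 with PBS in U87, against 3.38% ± 0.071 with BCT-100 and 4.31% ± 0.048 with PBS in U373 (SD, n = 3 each); its part in the results below was not tested. U373 PBS replicate 1 stood apart from the other U373 PBS libraries in interferon response genes, and results that rest on it are given with and without it.

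The responses of the lines differed for more genes than not. The difference was called higher for 3552 genes (26.1% of those tested) and lower for 4188 (30.7%). The median difference over all genes was −0.04, with quartiles of −0.40 and 0.37, against which the lists below are read. A difference of at least 2-fold was called higher for 1014 genes and lower for 889. When the difference had to exceed 1.5-fold by the test itself, 840 genes were higher and 907 lower. Among genes expressed in both lines 61.0% were called, against 32.2% of genes near 0 in U373 and 34.2% of genes near 0 in U87.

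Most genes of both lines that changed in each moved the same way. Of the 11766 genes, 2960 rose in both lines and 3063 fell in both. For 3374 of these 6023 genes the size of the change differed. Among genes that rose in both, the rise was larger in U87 for 631 and larger in U373 for 1086. Among genes that fell in both, the fall was deeper in U87 for 821 and deeper in U373 for 836. Across these genes the responses of the lines had a Pearson correlation of 0.61, which describes genes and not independent replicates. A further 1251 genes, 10.6% of those expressed in both lines, rose in one line and fell in the other.

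**Figure D1:**
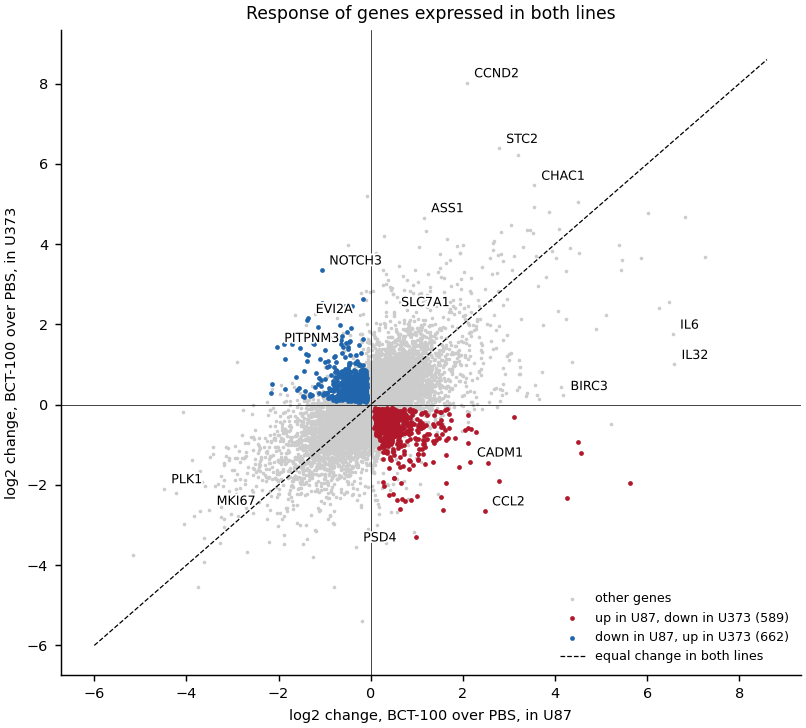
Each point is a gene expressed in both lines, at its log2 change with BCT-100 over PBS in U87 (horizontal) and in U373 (vertical); genes left out of the naming rule are not drawn. The 589 genes that rose in U87 and fell in U373 (red) and the 662 with the reverse pattern (blue) lie off the dashed line of equal change, as do IL6 far to the right of it and STC2 and CCND2 far above it.

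Most genes of the ATF4 and stress response list rose in both lines and rose more in U373. Of the 26 genes tested, 26 rose in U87 (33.6% of all genes did) and 24 rose in U373 (35.6%). The difference was lower for 17, higher for 4 and not called for 5, with a median of −0.61. By the 1.5-fold test it was lower for 9 and higher for 3. The median response was 2.17 in U87 and 2.79 in U373.

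The asparagine synthetase gene ASNS (chromosome 7, 97852118 to 97872542, GRCh38) had 17964, 18358 and 18360.3 with BCT-100 and 1681, 1716 and 1598 with PBS in U87, and 14780.3, 15551 and 15985 with BCT-100 and 731, 796 and 736 with PBS in U373. The U87 libraries lay above the U373 libraries with either treatment, and no groups overlapped. The difference was −0.90 (SE 0.05, adjusted p = 2.23e-11), although on the linear scale U87 gained more, by 1878. CHAC1 (chromosome 15, 40952962 to 40956519), which degrades glutathione, had 1893, 2056 and 1976 with BCT-100 and 148, 178 and 181 with PBS in U87, and 2928, 3068 and 2851 with BCT-100 and 66.3, 67.9 and 62.7 with PBS in U373. U373 lay below U87 with PBS and above it with BCT-100, and the difference was −1.92 (SE 0.11, adjusted p = 7.74e-12). STC2 (chromosome 5, 173314713 to 173329503), a secreted glycoprotein, had 39064, 39920.0 and 39897 with BCT-100 and 5859, 5537 and 5882 with PBS in U87, and 17307, 18849.7 and 18232 with BCT-100 and 234, 208 and 206 with PBS in U373. U87 was the higher line in both treatments, while the fold was larger in U373, and the difference was −3.60 (SE 0.06, adjusted p = 2.74e-19). On the linear scale U87 gained more STC2, by 15954.

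JDP2, a repressor that dimerises with ATF and JUN proteins, also rose more in U373 (1.65 in U87 and 4.13 in U373). The growth factor VEGFA changed by 2.03 in U87 and 3.30 in U373, and SESN2, which restrains mTORC1, by 2.60 in U87 and 3.67 in U373. ATF4 itself averaged 13882 ± 398 in U87 BCT-100, 3980.1 ± 18.2 in U87 PBS, 8208 ± 456 in U373 BCT-100 and 1725 ± 88.0 in U373 PBS (SD, n = 3 each), with a difference of −0.45. The members called higher were ATF5, VLDLR, CEBPG and DDIT4. ATF5, a transcription factor of the same family, had 2709.9, 2781 and 2695 with BCT-100 and 1039, 959 and 1060.2 with PBS in U87, and 241, 288 and 308 with BCT-100 and 487, 459 and 460.0 with PBS in U373. It rose in U87 and fell in U373, with a difference of 2.17 (SE 0.10, adjusted p = 5.28e-13). VLDLR, a lipoprotein receptor, changed by 1.66 in U87 and −0.11 in U373, and CEBPG, a dimer partner of ATF4, by 2.05 in U87 and 1.23 in U373. ATF3, DDIT3, PCK2, SLC7A11 and FGF21 rose in both lines with no call for the difference, at differences between −0.13 and 0.16.

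**Figure D2:**
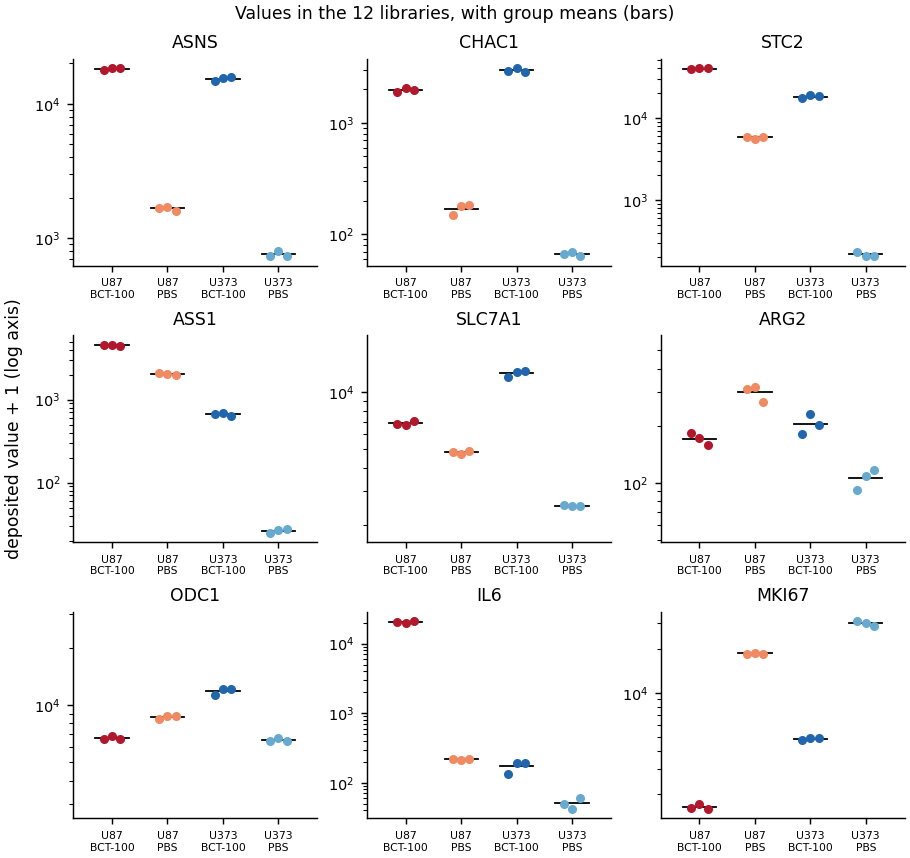
Deposited values plus 1 (log axis) of 9 genes in the 3 libraries of each group, with the group means as bars. ARG2 and ODC1 were lower with BCT-100 than with PBS in U87 and higher with BCT-100 in U373, while the other 7 genes moved the same way in both lines.

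The promoters of CHAC1 and of the arginine transporter SLC7A1 are shown because both genes differ strongly between the lines and their windows hold the amino acid response element TGATGNAAN (N is any base, either strand), to which ATF4 dimers are known to bind. They are RefSeq windows on GRCh38.p14 from 250 bases before to 50 after the transcription start, written 5′ to 3′ on the gene's strand, with the element in capitals. CHAC1 lies at chr15:40953221-40953520 (plus strand) with the element on the opposite strand, and SLC7A1 at chr13:29595639-29595938 (minus strand).
CHAC1: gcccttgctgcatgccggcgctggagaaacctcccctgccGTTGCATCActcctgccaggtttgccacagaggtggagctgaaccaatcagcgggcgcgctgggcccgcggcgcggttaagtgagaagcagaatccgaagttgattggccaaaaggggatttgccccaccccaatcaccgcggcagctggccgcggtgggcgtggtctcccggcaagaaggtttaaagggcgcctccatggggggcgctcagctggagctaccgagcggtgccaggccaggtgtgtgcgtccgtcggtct
SLC7A1: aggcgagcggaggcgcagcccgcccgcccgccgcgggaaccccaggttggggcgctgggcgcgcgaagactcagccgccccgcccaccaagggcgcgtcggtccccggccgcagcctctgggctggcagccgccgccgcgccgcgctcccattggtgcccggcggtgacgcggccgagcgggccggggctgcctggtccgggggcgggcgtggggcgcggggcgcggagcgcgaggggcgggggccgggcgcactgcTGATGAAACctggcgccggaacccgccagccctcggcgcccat

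The element was found in 328 of the 10936 tested genes that have a promoter window, counting a gene if any of its windows holds it, and in 3.61% of all 35097 windows of the table. Among genes called lower it was found in 4 of 12 stress response genes with a window (ASNS, CHAC1, HERPUD1 and JDP2), 5 of 8 amino acid transporters, 5 of 12 tRNA synthetases and 2 of 7 synthesis enzymes. Among genes not called it was found in 2 of 4 stress response genes, 1 of 5 transporters and 1 of 3 synthesis enzymes, and among genes called higher in 1 of 4 stress response genes, 0 of 1 transporter and 0 of 3 synthesis enzymes. The tRNA synthetases not called or called higher had no window in the table. A match of letters is a description of the window and not of binding. The stress response list was chosen to hold targets and factors of ATF4, so a high share in it follows at least in part from that choice. The transporter, tRNA synthetase and synthesis lists hold classes of gene that ATF4 turns on, so the same may apply to them. The genes not called or called higher are too few to tie the element to the direction of the difference.

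Amino acid transporters and synthesis enzymes also had more differences called lower than higher, as did all genes tested (30.7% lower and 26.1% higher). Of 17 transporters tested, the difference was lower for 8, higher for 3 and not called for 6, with a median of −0.07. That median was −0.27 without U373 BCT-100 replicate 3, −0.12 without U373 BCT-100 replicate 2, −0.11 without U373 PBS replicate 1 and −0.46 over the 14 transporters expressed in both lines. SLC7A1 (chromosome 13, 29509410 to 29595688), the main importer of arginine in many cells, had 6820.3, 6707 and 7044 with BCT-100 and 4862, 4736 and 4924 with PBS in U87, and 12048, 12838 and 12878 with BCT-100 and 2529.6, 2510.1 and 2518 with PBS in U373. U87 had the higher level with PBS and U373 with BCT-100, the groups did not overlap, and the difference was −1.82 (SE 0.04, adjusted p = 3.38e-17). The glutamine transporter SLC38A1 changed by 1.53 in U87 and 3.18 in U373, and SLC7A6, which exchanges cationic and neutral amino acids, by 0.22 in U87 and 1.04 in U373. On the higher side, SLC6A6, the taurine transporter, fell in both lines, by −0.49 in U87 and −1.92 in U373. Of 21 amino acid and one-carbon synthesis genes the difference was lower for 11, higher for 4 and not called for 6 (median −0.31). The cystathionine lyase gene CTH changed by 3.05 in U87 and 4.47 in U373, mitochondrial MTHFD2 of the folate cycle by 2.18 in U87 and 3.15 in U373 and the branched-chain aminotransferase BCAT1 by 0.86 in U87 and 1.80 in U373. GLUL, glutamine synthetase, rose by 0.70 (SE 0.04) in U87 and was at 0.04 (SE 0.04) in U373, where it was not called.

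Genes that handle arginine itself did not follow a single direction. Of 24 tested genes of arginine, urea cycle, nitric oxide and polyamine metabolism the difference was lower for 8, higher for 6 and not called for 10, with a median of −0.17 (−0.26 without U373 BCT-100 replicate 1, and −0.06 with a pseudocount of 5). These counts were close to the shares over all genes tested, 30.7% lower and 26.1% higher. ASS1 (chromosome 9, 130444929 to 130501274) had 4579.7, 4558 and 4390.4 with BCT-100 and 2070.4, 2048 and 1959 with PBS in U87, and 679, 688 and 629 with BCT-100 and 23.9, 25.8 and 26.4 with PBS in U373. Every U87 library lay above every U373 library, the fold was larger in U373, and the difference was −3.51 (SE 0.08, adjusted p = 3.38e-17). On the linear scale U87 gained more ASS1, by 1844. ASL, which completes arginine synthesis, fell in both lines (−0.40 in U87 and −0.76 in U373), with a difference of 0.36 (SE 0.09, adjusted p = 0.00192).

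At 4 of these genes the lines moved in opposite directions, as they did at 9.53% of all genes tested. ARG2 (chromosome 14, 67619798 to 67651720), the mitochondrial arginase, had 181, 171 and 158 with BCT-100 and 311, 318 and 266 with PBS in U87, and 179, 230.1 and 200.1 with BCT-100 and 90.2, 108 and 116 with PBS in U373. It fell in U87 and rose in U373 without overlap within either line, and the difference was −1.75 (SE 0.18, adjusted p = 6.75e-08). ODC1 (chromosome 2, 10439968 to 10448504), which makes putrescine from the ornithine that arginase releases, had 6592, 6840.3 and 6644 with BCT-100 and 8429, 8795 and 8734 with PBS in U87, and 11285, 12149 and 12099.7 with BCT-100 and 6441, 6682 and 6448 with PBS in U373. The lines exchanged places: U87 was higher with PBS and U373 with BCT-100, with a difference of −1.23 (SE 0.04, adjusted p = 1.13e-14). SRM, spermidine synthase, changed by −0.55 in U87 and 0.39 in U373, with a difference of −0.94 (SE 0.06, adjusted p = 3.02e-11). GATM, which uses arginine in the first step of creatine synthesis, had 46.6, 57.7 and 51.1 with BCT-100 and 13.7, 19.1 and 18.1 with PBS in U87, and 35.0, 48.8 and 57.7 with BCT-100 and 311, 276 and 290.0 with PBS in U373. It rose in U87 and fell in U373, with a difference of 4.20 (SE 0.30, adjusted p = 3.47e-10) at levels that were low in 3 of the 4 groups. SAT1, the polyamine acetyltransferase, rose in both lines and more in U87 (2.12 in U87 and 1.49 in U373). AZIN1, which protects ornithine decarboxylase from degradation, rose more in U373 (0.17 in U87 and 0.84 in U373). The differences of the carbamoyl phosphate synthase gene CPS1, the ornithine aminotransferase gene OAT and the antizyme gene OAZ1 were not called and lay between 0.04 and 0.11.

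Genes of the translation machinery had more positive responses in U373. Of 20 cytosolic tRNA synthetases the difference was lower for 17, higher for 1 and not called for 2 (median −0.43), with examples at 1.46 in U87 and 2.64 in U373 for the tyrosine enzyme YARS and 0.59 in U87 and 1.65 in U373 for the isoleucine enzyme IARS. The exception was DARS, for aspartate, at 0.71 in U87 and 0.45 in U373. By the 1.5-fold test 4 of the 20 synthetases were lower and 0 higher. Of 33 MYC and ribosome biogenesis genes the difference was lower for 28, higher for 3 and not called for 2, with a median of −0.83 and median responses of 0.31 in U87 and 1.03 in U373. MYC, the transcription factor that drives ribosome production, had 2225, 2261 and 2276 with BCT-100 and 1178, 1138 and 1154 with PBS in U87, and 6919.6, 7454 and 7534 with BCT-100 and 657, 726 and 774 with PBS in U373. It was the higher in U87 with PBS and the higher in U373 with BCT-100, with a difference of −2.38 (SE 0.07, adjusted p = 4.97e-16). The nucleolar genes NOP16 and RRP9 changed by 0.45 in U87 and 1.69 in U373, and by −0.07 in U87 and 1.13 in U373; the U87 value of RRP9 was not called. The 3 genes called higher, MXD1, MXD3 and MXD4, encode antagonists of MYC, and the call of MXD1 at 0.23 was lost in 14 of 23 alternatives. Of 57 ribosomal protein genes the difference was lower for 36, higher for 4 and not called for 17 (median −0.22), and the higher count was 9 under TMM scaling. By the 1.5-fold test 1 of them was lower and 0 were higher. RPL5 rose by 0.15 in U87 and 0.98 in U373, while RPS25 fell in U87 (−0.38) and rose in U373 (0.22). Ribosomal protein genes have near-identical pseudogene copies, so their reads are uncertain.

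Mitotic genes fell more deeply in U87, without exception in the list. All 36 mitosis genes had a lower difference, with a median of −1.24, and this count held in each of the 23 alternatives other than the 1.5-fold test, by which 31 were lower. In U87 36 fell (35.7% of all genes did) and in U373 33 fell (35.8%), with a median response of −2.56 in U87 and −1.31 in U373. In these bulk samples fewer dividing cells and less RNA per dividing cell cannot be told apart.

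MKI67 (chromosome 10, 128096659 to 128126385), the marker of cycling cells, had 1624, 1722 and 1589 with BCT-100 and 18456, 18858 and 18604 with PBS in U87, and 4704, 4911 and 4881 with BCT-100 and 31026, 30178 and 28636 with PBS in U373. U373 was the higher line in both treatments and fell less in log2 terms, with a difference of −0.87 (SE 0.05, adjusted p = 5.45e-12), but lost more on the linear scale. PLK1, a mitotic kinase, had 141, 149 and 136 with BCT-100 and 3134, 3288 and 3183 with PBS in U87, and 655, 659 and 583 with BCT-100 and 2775, 2668 and 2648 with PBS in U373. The U87 libraries lay above the U373 libraries with PBS and below them with BCT-100, with a difference of −2.39 (SE 0.08, adjusted p = 2.57e-15). BIRC5 (survivin) changed by −3.43 in U87 and −1.24 in U373, and NUF2, part of the kinetochore, by −2.79 in U87 and −0.76 in U373. Checkpoint genes MAD2L1 and BUB3 fell in U87 (−1.45 and −0.09) and rose in U373 (0.18 and 0.19). UBE2C, which feeds the mitotic ubiquitin ligase, changed by −1.76 (SE 0.05) in U87 and by −0.02 (SE 0.05) in U373, where it was not called.

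DNA replication genes did not share this order. Of 41 tested, 39 fell in U87 and 36 fell in U373, against 35.7% and 35.8% of all genes tested. The difference was higher for 13, lower for 14 and not called for 14, with a median of −0.07 (−0.11 without U373 BCT-100 replicate 2). The counts for the difference were near the shares over all genes tested, 26.1% higher and 30.7% lower. POLA2, a subunit of the priming polymerase, changed by −1.06 in U87 and −1.74 in U373, whereas GINS1 of the replicative helicase changed by −1.20 in U87 and −0.18 in U373. ORC6, of the origin recognition complex, fell in U87 (−0.18) and rose in U373 (0.75).

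Targets of p53 and inhibitors of cyclin-dependent kinases, taken as 1 list, had more positive responses in U87. Of 24 tested, the difference was higher for 11, lower for 4 and not called for 9 (median 0.35), and 5 rose in U87 and fell in U373. Over all genes tested 26.1% were higher, 30.7% were lower and 4.50% rose in U87 and fell in U373. CDKN1A, which encodes the cell cycle inhibitor p21, had 6628, 7003 and 6514 with BCT-100 and 4086, 4112 and 4318 with PBS in U87, and 356, 359 and 335 with BCT-100 and 471, 576 and 527 with PBS in U373. It rose in U87 and fell in U373 without overlap within a line, and the difference was 1.26 (SE 0.08, adjusted p = 6.29e-11). The DNA repair gene XPC and the antiproliferative gene BTG2 followed, at 0.60 in U87 and −0.71 in U373, and at 0.64 in U87 and −0.90 in U373. GDF15, a stress cytokine, rose in both and more in fold in U373 (3.52 in U87 and 4.29 in U373).

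Inflammatory genes separated the lines by the widest margin of the lists. Of 35 tested cytokines, chemokines and NF-kB targets and regulators the difference was higher for 28, lower for 3 and not called for 4, with a median of 2.20. With the test limited to genes expressed in both lines, it was higher for 21 and lower for 3 of 26, with a median of 1.65. With voom weights 24 of the 35 were higher. Of the 35, 33 rose in U87 (33.6% of all genes did) and 19 rose in U373 (35.6%). The median response was 2.61 in U87 and 0.33 in U373. IL6 (chromosome 7, 22725884 to 22732002), interleukin 6, had 20699, 19634 and 20939.8 with BCT-100 and 220.0, 211 and 216 with PBS in U87, and 134, 192 and 189 with BCT-100 and 48.8, 41.0 and 60.0 with PBS in U373. It rose in both lines, the U87 BCT-100 libraries stood far above all others, and the difference was 4.80 (SE 0.19, adjusted p = 2.49e-11). The cytokine IL32 had 544, 519 and 584 with BCT-100 and 5.87, 5.46 and 3.19 with PBS in U87, and 116, 98.6 and 109.8 with BCT-100 and 47.0, 67.9 and 47.3 with PBS in U373. U87 was the lower line with PBS and the higher with BCT-100, with a difference of 5.58 (SE 0.30, adjusted p = 5.13e-12).

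The chemokine CCL2 had 1450.3, 1359 and 1429 with BCT-100 and 254, 240.1 and 265 with PBS in U87, and 199, 103 and 126 with BCT-100 and 833, 768 and 1004 with PBS in U373. It rose in U87 and fell in U373, with a difference of 5.12 (SE 0.29, adjusted p = 1.21e-07). The interleukin gene IL1A changed by 6.26 in U87 and 2.42 in U373, and the neutrophil chemokines CXCL8 and CXCL2 by 5.86 in U87 and 3.66 in U373, and by 5.11 in U87 and 2.23 in U373. CXCL1, CXCL5, CCL20, CSF3 and PTGS2 rose by 2.66 to 5.14 in U87 and were listed at 0 in U373 with either treatment. Feedback regulators of NF-kB rose in U87 and were not called in U373. NFKBIA was at 1.69 in U87 and 0.03 in U373, TNFAIP3 at 2.22 in U87 and −0.02 in U373 and NFKB2 at 1.63 in U87 and −0.01 in U373. BIRC3 (chromosome 11, 102317450 to 102339403), an inhibitor of apoptosis that NF-kB induces, had 6015, 5673 and 5969.7 with BCT-100 and 329, 338 and 306 with PBS in U87, and 408, 409 and 508 with BCT-100 and 359, 362 and 406 with PBS in U373. It rose in both lines, by 0.23 in U373, and the difference was 3.95 (SE 0.11, adjusted p = 1.38e-16). TRAF1, an adaptor of the TNF receptors, changed by 3.60 in U87 and 0.25 in U373. The genes called lower were IL11, TNFAIP6 and CSF1, which rose in both lines, with IL11, a cytokine of the IL6 family, at 1.29 in U87 and 2.83 in U373.

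**Figure D3:**
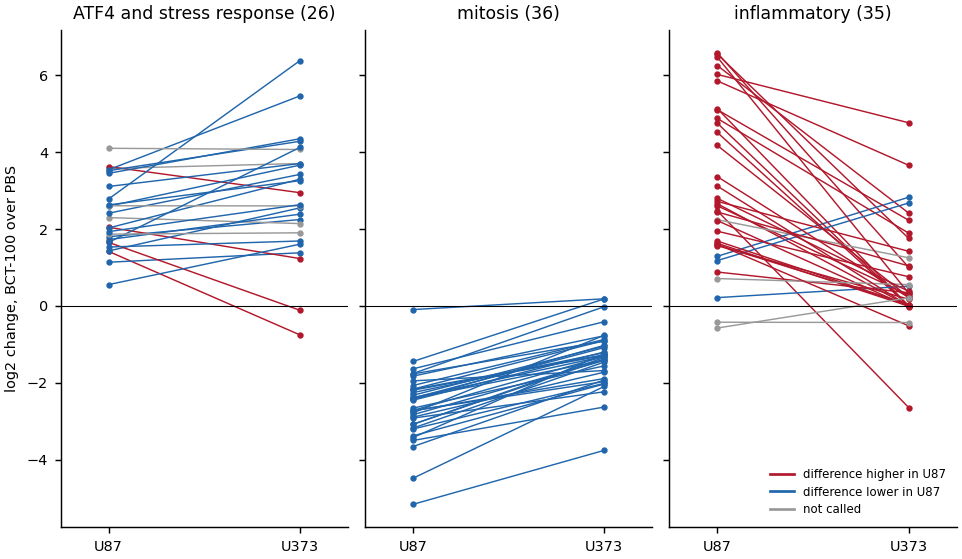
Each line joins the log2 change of a gene in U87 (left) to its change in U373 (right) for the tested members of 3 lists, coloured by the call for the difference. Lines of the 36 mitosis genes all climb toward U373, those of the stress genes mostly climb, and those of the 28 of 35 inflammatory genes called higher descend.

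The promoters of IL6 and BIRC3 are shown as examples of windows of genes called higher that hold an NF-kB motif, GGG then any 2 bases then TTTCC (either strand, in capitals). IL6 lies at chr7:22726950-22727249 (plus strand, RefSeq, GRCh38.p14) and BIRC3 at chr11:102317234-102317533 (plus strand), where the match is on the opposite strand.
IL6: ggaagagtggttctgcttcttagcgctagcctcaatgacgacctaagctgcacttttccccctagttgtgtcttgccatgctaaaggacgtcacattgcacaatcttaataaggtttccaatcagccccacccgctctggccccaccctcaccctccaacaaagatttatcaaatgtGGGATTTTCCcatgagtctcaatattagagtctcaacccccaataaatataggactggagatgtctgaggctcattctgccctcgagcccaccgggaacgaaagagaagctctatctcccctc
BIRC3: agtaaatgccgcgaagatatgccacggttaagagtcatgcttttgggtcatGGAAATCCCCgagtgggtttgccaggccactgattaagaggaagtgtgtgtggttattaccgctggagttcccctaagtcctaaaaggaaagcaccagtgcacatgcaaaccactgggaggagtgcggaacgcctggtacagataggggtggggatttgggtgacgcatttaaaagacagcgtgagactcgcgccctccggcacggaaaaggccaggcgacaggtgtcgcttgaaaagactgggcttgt

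These letters were found in 1.91% of all 35097 windows, in 2.80% of the 10936 tested genes with a window, and in 13 of the 22 inflammatory genes called higher that have one. The inflammatory list was chosen to hold NF-kB targets and regulators, so its high share follows at least in part from that choice. Of the other inflammatory genes with a window, 1 of 3 not called (REL) and 0 of 2 called lower held the letters. These are too few to tie the letters to the direction of the difference. In other lists, among genes called lower, the letters were found in 0 of 12 stress response genes and 1 of 12 tRNA synthetases.

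In interferon response genes the difference leaned the same way, but 1 library weighs on them. U373 PBS replicate 1 held the highest value of the 3 U373 PBS libraries for 26 of 28 tested interferon genes. The summed level of the list was 21581 in it, against 10876 and 10619 in the other U373 PBS libraries, 9139 to 10012 in U373 BCT-100, 15992 to 16615 in U87 BCT-100 and 12870 to 13343 in U87 PBS. With all libraries 10 genes rose and 5 fell in U87 (median response 0.21), against 33.6% and 35.7% of all genes tested. In U373 2 rose and 14 fell (median response −1.2), against 35.6% and 35.8%. These U373 values rest in part on U373 PBS replicate 1. Without it the U373 response moved from −1.44 to −0.53 for MX2 and from −0.39 to 0.07 for ISG15. That of IFI35 moved less, from −1.44 to −1.20, and that of ISG20 moved the other way, from 0.32 to 0.29. With all libraries the difference was higher for 13 genes, lower for 1 and not called for 14, with a median of 0.84. Without U373 PBS replicate 1 it was higher for 16, lower for 1 and the median was 0.64, and 12 genes were higher in both fits. The count of 13 was 8 without U87 BCT-100 replicate 2, U87 PBS replicate 1 or U87 PBS replicate 3, and 7 with voom weights. MX2 had 182, 199 and 172 with BCT-100 and 81.2, 86.4 and 89.3 with PBS in U87, and 23.3, 21.9 and 23.3 with BCT-100 and 226, 41.0 and 27.3 with PBS in U373, and its difference was 2.54 with that library and 1.63 without it, a call lost in 10 of 23 alternatives. IFI35, an interferon-induced gene, had 736, 814 and 796 with BCT-100 and 288, 318 and 306 with PBS in U87, and 81.6, 116 and 114 with BCT-100 and 390.4, 239.9 and 234 with PBS in U373. U87 rose and U373 fell, and its difference was 2.80 with the library and 2.56 without it. IRF1, a transcription factor of the pathway, rose in both lines and more in U87 (2.71 in U87 and 1.86 in U373). USP18, which removes the ISG15 modifier, was the gene called lower, at −2.43 in U87 and −1.55 in U373. Its U373 response was −1.32 without U373 PBS replicate 1. The differences of MX1, OAS1 and OASL were not called and changed sign when the library was left out.

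Of 19 MHC class I and peptide loading genes the difference was higher for 15, lower for 2 and not called for 2, with a median of 0.62. B2M, the shared light chain, had 31769, 31394 and 32393 with BCT-100 and 21348, 21955 and 23174 with PBS in U87, and 17623, 17692 and 18377 with BCT-100 and 24971, 25610.5 and 25986 with PBS in U373. Its change was upward in U87 and downward in U373, with a difference of 1.04 (SE 0.04, adjusted p = 3.38e-14). The immunoproteasome subunit PSMB10 rose by 1.39 (SE 0.07) in U87 and was at 0.05 (SE 0.07) in U373, where it was not called. HLA genes share reads, so their values, such as HLA-B at 1.44 in U87 and 0.59 in U373, are uncertain. NLRC5, the activator of class I genes, fell in both lines and more in U87 (−1.11 in U87 and −0.64 in U373).

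Energy metabolism differed in both directions. Of 13 mitochondrially encoded mRNAs the difference was lower for 11 and not called for 2 (median −0.37), but by the 1.5-fold test 0 were lower. MT-ND1 of complex I fell in U87 (−0.29) and rose in U373 (0.22), and MT-ND2 fell in both (−0.66 in U87 and −0.14 in U373). Of 36 nuclear genes of oxidative phosphorylation the difference was lower for 18, higher for 5 and not called for 13 (median −0.15). The count higher was 3 without U87 BCT-100 replicate 2, U87 PBS replicate 1, U87 PBS replicate 3 or U373 BCT-100 replicate 1. By the 1.5-fold test 0 of these 36 were higher and 0 lower. Of 34 glycolysis and hypoxia genes the difference was higher for 18, lower for 11 and not called for 5 (median 0.17). The glucose transporter SLC2A1 had 2564, 2506 and 2548 with BCT-100 and 800.0, 861 and 807 with PBS in U87, and 2964, 3239 and 2744 with BCT-100 and 5384, 5632 and 5494 with PBS in U373. It rose in U87 and fell in U373 without overlap within a line, with a difference of 2.51 (SE 0.07, adjusted p = 1.33e-16). LDHA, lactate dehydrogenase, had 64330.4, 64498 and 62853 with BCT-100 and 49988, 50248 and 49972 with PBS in U87, and 481, 467 and 444 with BCT-100 and 813, 826 and 830.0 with PBS in U373. Its level was far higher in U87 in either treatment, and it rose in U87 and fell in U373, with a difference of 1.18 (SE 0.04, adjusted p = 1.13e-14). The carbonic anhydrase CA12 rose in both lines and more in fold in U373 (0.61 in U87 and 3.46 in U373), from a PBS mean of 9.70 there.

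Cholesterol genes fell more in U373. Of 24 tested, 17 fell in U87 and 23 fell in U373, against 35.7% and 35.8% of all genes tested. The difference was higher for 17, lower for 3 and not called for 4 (median 0.50). INSIG1, which holds back the sterol sensor, had 2810.4, 2604 and 2934 with BCT-100 and 2740.3, 2633 and 2645 with PBS in U87, and 511, 502 and 476 with BCT-100 and 2265, 2063 and 2154 with PBS in U373. It was not called in U87 and fell in U373, with a difference of 2.18 (SE 0.07, adjusted p = 1.36e-15). FDFT1, squalene synthase, changed by −0.56 in U87 and −1.73 in U373. Among genes called lower, the sterol isomerase gene EBP lost the call in 9 of 23 alternatives. The mevalonate kinase gene MVK kept it in all 23 and was at −1.22 in U87 and −0.57 in U373.

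NRF2 and iron genes, chaperones and lysosomal genes were mixed. Of 26 NRF2, iron and metallothionein genes the difference was higher for 11, lower for 7 and not called for 8. The heme oxygenase HMOX1 had 16135, 16755 and 16065 with BCT-100 and 3972, 4132 and 4046 with PBS in U87, and 7668, 7843 and 7932 with BCT-100 and 472, 494 and 532 with PBS in U373. It was the higher in U87 in each treatment and rose by the larger fold in U373, with a difference of −1.96 (SE 0.05, adjusted p = 1.55e-16). The transferrin receptor TFRC was not called in U87 (0.05) and rose in U373 (0.77). Of 24 ER chaperone and sensor genes the difference was higher for 13 and lower for 5. The sensor kinase ERN1 rose by 2.78 in U87 and 1.95 in U373, and its splicing target XBP1 by 2.03 in U87 and 2.40 in U373. Of 28 autophagy and lysosome genes it was higher for 8 and lower for 11, with a median of 0.01 that changed sign in some alternatives. The autophagy receptor SQSTM1 rose more in U87 (1.82 in U87 and 0.96 in U373), and TFEB, a transcription factor of lysosomal genes, fell in U87 (−0.64) and rose in U373 (0.53).

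Matrix and growth signalling genes had more differences called lower than higher, as did all genes tested (30.7% lower and 26.1% higher). Of 37 matrix and mesenchymal genes the difference was lower for 19, higher for 8 and not called for 10 (median −0.24). The membrane metalloprotease MMP14 had 9723, 9477 and 8992 with BCT-100 and 11321, 11205 and 11211 with PBS in U87, and 9881, 10375 and 10737 with BCT-100 and 3787, 3665 and 3638 with PBS in U373. It fell slightly in U87 and rose in U373, with a difference of −1.74 (SE 0.05, adjusted p = 1.33e-16). COL4A2 of the basement membrane also fell in U87 and rose in U373 (−1.62 in U87 and 0.70 in U373), with at most 172 in any U87 library. COL11A1, a fibrillar collagen, had the reverse pattern (0.75 in U87 and −2.40 in U373), on low U87 levels. TIMP1, an inhibitor of metalloproteases, rose in U87 (0.91) and fell in U373 (−0.12). Of 33 growth signalling genes the difference was lower for 16, higher for 8 and not called for 9 (median −0.08). This median was −0.28 without U373 BCT-100 replicate 3, −0.24 without U87 BCT-100 replicate 2, −0.22 without U87 PBS replicate 3, −0.15 without U373 PBS replicate 1 and −0.04 without U87 BCT-100 replicate 1. DUSP4, a phosphatase that limits ERK signalling, had 2003, 2058 and 2149 with BCT-100 and 2995, 3049 and 3097 with PBS in U87, and 508, 556 and 606 with BCT-100 and 87.5, 99.5 and 113 with PBS in U373. It fell in U87 and rose in U373, with a difference of −3.03 (SE 0.11, adjusted p = 9.62e-15). The NOTCH ligand JAG1 rose in both and more in U373 (1.03 in U87 and 3.06 in U373), where its mean reached 43236 with BCT-100.

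Of 24 BCL2 family and death receptor genes the difference was higher for 9, lower for 2 and not called for 13 (median 0.15). The BH3-only gene BMF rose by 2.71 in U87 and 0.43 in U373, and the death receptor FAS fell in both lines, less in U87 (−0.33 in U87 and −1.47 in U373). HRK, another BH3-only gene, averaged 8.88 with BCT-100 and 1.66 with PBS in U87. In U373 it had 42.4, 55.8 and 68.9 with BCT-100 and 0 in each library with PBS, at least 55.7-fold higher with BCT-100 when the PBS group is set to its floor of 3 reads in all. Of 19 tested genes of stress and amino acid sensing the difference was higher for 3, lower for 10 and not called for 6. By the 1.5-fold test it was higher for 1 and lower for 0. SESN3, a relative of SESN2, was not called in U87 (−0.01) and fell in U373, with a difference of 1.49, and EIF2B3, part of the initiation factor that the stress response inhibits, fell in U87 (−0.39) and rose in U373 (0.30). Glial and neural stem cell genes had 9 higher, 5 lower and 4 not called of 18, but 4 higher and 4 lower of the 11 expressed in both lines, and 6 of each with voom weights. The growth factor receptor PDGFRA was at −1.11 in U87 and −2.64 in U373. Neuronal genes had 4 of 9 higher and 1 lower, and 2 higher of the 5 expressed in both lines, with the microtubule protein MAP2 rising in U87 and falling in U373 (difference 1.68). The leukocyte list had 1 of 4 tested members higher, and the endothelial and epithelial lists each had 1 higher and 1 lower of 5.

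**Figure D4:**
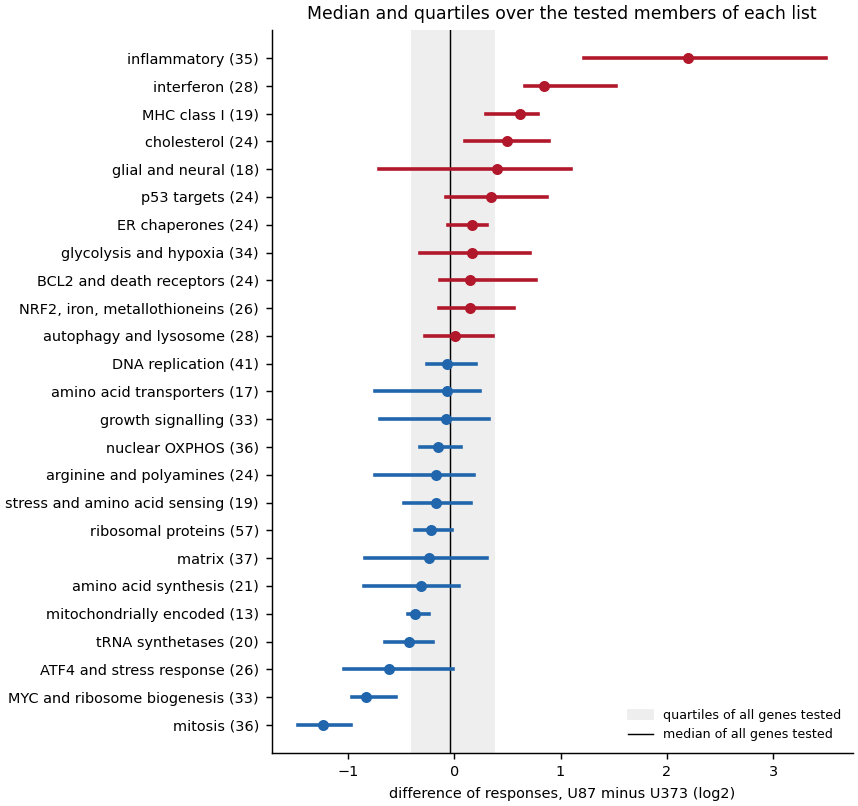
Median (point) and quartiles (bar) of the difference of responses, U87 minus U373 in log2, over the tested members of each list, with the number tested in brackets. The inflammatory list lies highest at a median of 2.20 and the mitosis list lowest at −1.24, both outside the grey band that spans the quartiles of all genes tested. Over the 26 inflammatory genes expressed in both lines the median was 1.65.

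Among genes expressed in both lines with a mean of at least 100 in at least 1 group of each line, the 10 largest positive differences were those of IL32, CCL2, IL6, BIRC3, CLDN1, CADM1, SDC3, TRAF1, ANK3 and PSD4, from 5.58 to 3.22. CLDN1, a tight junction protein, rose in both lines but more in U87 (6.47 in U87 and 2.57 in U373). SDC3, a heparan sulfate proteoglycan, had 282, 331 and 278 with BCT-100 and 28.4, 31.8 and 41.5 with PBS in U87, and 2447, 2573 and 2348 with BCT-100 and 3094, 3087 and 3008 with PBS in U373. The lines stayed far apart in level, and it rose in U87 and fell slightly in U373, with a difference of 3.43 (SE 0.14, adjusted p = 7.84e-13). ANK3, an ankyrin that anchors membrane proteins, changed by 0.88 in U87 and −2.37 in U373. PSD4, an exchange factor for ARF6, had 263, 234 and 277 with BCT-100 and 299, 328 and 340.3 with PBS in U87, and 194, 168 and 205 with BCT-100 and 2256, 2029 and 2346 with PBS in U373, so it fell in both lines and far more in U373, with a difference of 3.22 (SE 0.12, adjusted p = 3.11e-14).

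The 10 largest negative differences were those of CCND2, NOTCH3, TRABD2A, FAM167A, STC2, ASS1, PPARGC1B, EVI2A, PITPNM3 and ARHGAP24, from −5.93 to −3.26. CCND2, cyclin D2, had 367, 399 and 376 with BCT-100 and 80.2, 91.9 and 94.7 with PBS in U87, and 239.5, 286 and 254 with BCT-100 and 0 in each library with PBS in U373. U373 with PBS was at 0 reads, so its rise there was at least 260-fold, taking 3 reads in the whole PBS group as the floor, while U87 rose by 2.09 (SE 0.19). The fitted difference of −5.93 depends on the pseudocount, and on the linear scale U87 gained slightly more, by 31.8. TRABD2A, a membrane metalloprotease that acts on Wnt proteins, had 536, 563 and 658 with BCT-100 and 507, 457 and 462 with PBS in U87, and 390.0, 392 and 434 with BCT-100 and 27.6, 16.4 and 20.0 with PBS in U373. It was not called in U87 and rose in U373, with a difference of −3.92 (SE 0.20, adjusted p = 1.71e-12). ARHGAP24, a GTPase-activating protein for RAC, varied widely among the U373 PBS libraries (35.9, 11.7 and 42.7), and its difference was −3.26 (SE 0.53, adjusted p = 0.000542).

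Genes that moved in opposite directions numbered 1299 over all classes, 9.53% of those tested. Of these, 613 rose in U87 and fell in U373 (4.50%) and 686 fell in U87 and rose in U373 (5.03%). Both changes were called separately, on libraries that the lines do not share. Most were small. Among genes expressed in both lines, the changes were at least 1.5-fold each way for 98 of 589 with the first pattern and 58 of 662 with the second, and at least 2-fold for 23 and 17.

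With the same level minimum of 100 in at least 1 group of each line, the 10 genes expressed in both lines that rose in U87 and fell in U373 and ranked highest by the smaller of their changes were CCL2, CADM1, IFI35, RPS6KA5, FAM129A, LRP1B, CTSO, GSAP, MAP3K14 and SEMA3A. CADM1, a cell adhesion molecule, had 638, 572 and 606 with BCT-100 and 132, 142 and 133 with PBS in U87, and 712, 757 and 710.1 with BCT-100 and 1996, 1865 and 2013 with PBS in U373. The U373 libraries were above the U87 libraries with either treatment and the gap narrowed with BCT-100, with a difference of 3.58 (SE 0.09, adjusted p = 4.35e-17). MAP3K14, the kinase of the noncanonical NF-kB pathway, had 486, 591 and 509 with BCT-100 and 260.1, 256 and 262 with PBS in U87, and 934, 974 and 1034 with BCT-100 and 2304, 2332 and 2276 with PBS in U373. U373 was the higher line in each treatment and the gap narrowed with BCT-100, with a difference of 2.25 (SE 0.09, adjusted p = 6.48e-14). RPS6KA5, a kinase of histones and CREB, had 363, 389.6 and 400.0 with BCT-100 and 133, 130.1 and 106 with PBS in U87, and 254, 223 and 245 with BCT-100 and 592, 525 and 602 with PBS in U373. Here U373 was the higher line with PBS and the lower with BCT-100, with a difference of 2.89 (SE 0.14, adjusted p = 1e-12). FAM129A, known as Niban, changed by 1.19 in U87 and −1.47 in U373, and SEMA3A, a secreted guidance protein, by 1.13 in U87 and −0.98 in U373.

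By the same rule and level minimum, the 10 genes with the reverse pattern were PITPNM3, PPARGC1B, EVI2A, CEMIP, FAM132B, FERMT1, CREB5, NFIA, NOTCH3 and TFPI. PPARGC1B, a coactivator of mitochondrial genes, had 141, 147 and 162 with BCT-100 and 404, 388 and 387 with PBS in U87, and 159, 163 and 213 with BCT-100 and 51.6, 39.8 and 30.9 with PBS in U373. With BCT-100 the lines lay close together while with PBS they lay far apart, and the difference was −3.51 (SE 0.23, adjusted p = 7.16e-11). NOTCH3, a NOTCH receptor, had 542, 422 and 521 with BCT-100 and 1111, 1053 and 919.9 with PBS in U87, and 336, 278 and 318 with BCT-100 and 36.8, 37.5 and 18.2 with PBS in U373. It fell in U87 and rose in U373, with a difference of −4.41 (SE 0.33, adjusted p = 4.97e-07). CREB5, a transcription factor of the CREB family, had 235, 255 and 275 with BCT-100 and 570.2, 568 and 543 with PBS in U87, and 489, 504 and 492 with BCT-100 and 107, 147 and 136 with PBS in U373, with a difference of −3.07 (SE 0.14, adjusted p = 5.69e-13). U87 was the higher line with PBS and U373 with BCT-100. NFIA, a transcription factor of glial development, averaged 102 ± 7.66 in U87 BCT-100, 212 ± 11.3 in U87 PBS, 161 ± 5.37 in U373 BCT-100 and 49.3 ± 3.06 in U373 PBS (SD, n = 3 each), and its lines likewise exchanged places, with a difference of −2.75 (SE 0.19, adjusted p = 1.49e-10). TFPI, an inhibitor of coagulation, changed by −0.99 in U87 and 1.07 in U373, and CEMIP, which binds and breaks down hyaluronan, by −1.39 in U87 and 1.26 in U373.

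**Figure D5:**
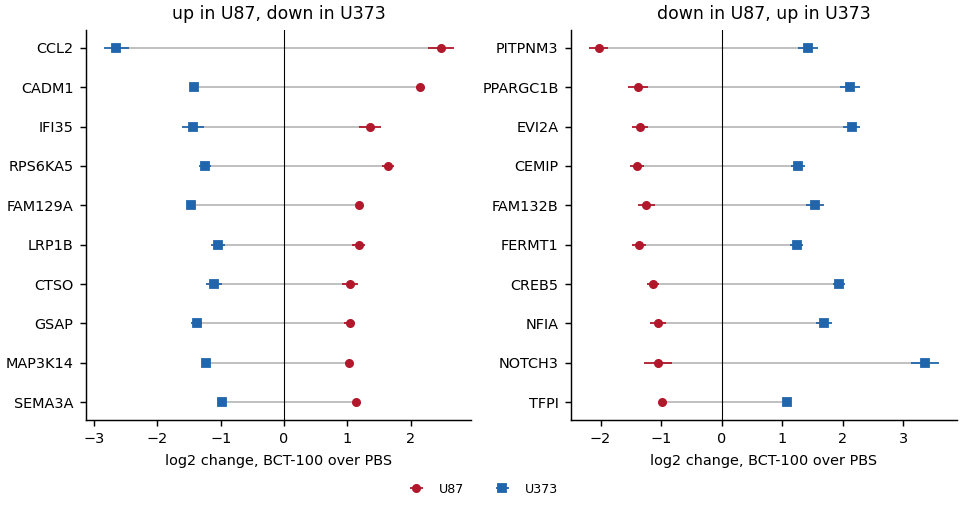
Log2 change with BCT-100 over PBS in U87 (red circles) and U373 (blue squares), with SEs as bars, for the 10 genes of each opposite pattern. U87 and U373 stand on opposite sides of 0 for all 20 genes, by the way they were chosen, and CCL2 spans the widest gap on the left and NOTCH3 on the right.

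Genes near 0 in one line have few or no reads there, so their difference mostly restates the response of the other line. The genes named here were called in the line that expresses them, reached a group mean of at least 100 and were ranked by the response in that line, so other genes near 0 with lower levels can have larger changes. Among the 398 genes near 0 in U373, the difference was higher for 65 and lower for 63. By this rule the largest rises in U87 were in SPRR2D and SPRR2A, proteins of the epithelial cornified envelope, OLAH, a thioesterase, TNFSF8, the ligand of CD30, and LCN2, which binds iron carriers. OLAH had 496, 541 and 551 with BCT-100 and 3.91, 3.64 and 2.13 with PBS in U87. TNFSF8 had 107, 110.0 and 155 with BCT-100 and 0 in each library with PBS in U87, at least 126-fold higher by the same floor, and was listed at 0 in U373. LCN2 had 429 recovered reads with BCT-100 and 3 with PBS in U87, a ratio of 135 with an exact 95% counting interval of 46.2 to 654. SPRR2 genes are near copies of each other and their reads are uncertain. By the same rule the largest falls in U87 were in SGCD, CDH7, DCC, PALMD and SLC4A4, with log2 responses from −3.43 to −2.74 in U87, and DCC, a netrin receptor, had 78.7, 98.3 and 123 with BCT-100 and 765, 755 and 783 with PBS.

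Among the 363 genes near 0 in U87, the difference was higher for 79 and lower for 45. Ranked by the response in U373 with the same level minimum, the largest rises were in PTCHD1, HS6ST2, NAT8L, HES4 and CXCL12. HS6ST2, a heparan sulfate sulfotransferase, averaged 599 with BCT-100 and 40.2 with PBS in U373. The call for the difference of the chemokine CXCL12, at −1.71, was lost in 12 of 23 alternatives. The largest falls under that minimum were in PI15, KRT13, SLC38A11, FAM65B and NEFL, and PI15, a trypsin inhibitor, had 184, 162 and 168 with BCT-100 and 4279, 4044 and 4026 with PBS. S100B, a glial calcium-binding protein, averaged 55.1 with BCT-100 and 398 with PBS in U373 and at most 0.902 in any U87 library.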

How the data were processed

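RNA of 2 glioblastoma lines was sequenced after 72 h with BCT-100 or PBS, 3 libraries per group. Groups follow the treatment label of each library, although the treatment protocol text names PBS for all 12. Reads were mapped with STAR to hg38 and counted with RSEM, per the submitters' processing notes; versions and annotation are not given in the sources used here. The deposited values are a signal, read counts per gene that the authors divided by 1 scaling factor per library: undoing it gave whole numbers, within 0.01, for 85.3 to 87.1% of values. Since the remaining values were not whole, no count model was used.

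From these values, log2(value + 1) was fitted with limma 3.58.1 in R 4.3.3 (trend, robust prior, 4 group means, 8 residual degrees of freedom) on the 13628 genes that reached 10 in 3 or more libraries, with Benjamini-Hochberg adjustment over all of them and calls at 0.05. Of 19844 rows, 20 repeats were dropped, and 42 entries that share a symbol were not named. The fit was tested on simulated data. Members and gene lists were chosen with earlier results of these data known. Named genes were a panel of 9, the 10 largest differences each way, the 10 clearest genes of each opposite pattern, the 5 largest rises and falls near 0 in 1 line, and up to 3 called members each way per list; other list members are given as examples, and some genes are not reported here. Gene positions matched 18778 of 19803 symbols (GENCODE v29) and promoters 15178 (RefSeq). Floors of 3 reads and 95% intervals cover counting error only. Same-numbered libraries of different groups did not deviate together (correlations of −0.1 to 0.07), so no pairing was used. Replicates differed by more than sampling noise. Alternatives were other scalings, pseudocounts, filters and variance models, a 1.5-fold test, the linear scale, a replicate block and leaving out each library. Figures were drawn with matplotlib 3.10.9.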

Additional observations from a re-analysis of the deposited data

Results flagged for a closer look

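The response to BCT-100 differed between the lines by the test of the difference itself for 3552 genes that were higher in U87 and 4188 that were lower. Separately called changes in opposite directions were found for 613 genes that rose in U87 and fell in U373 and for 686 that fell in U87 and rose in U373. Among the genes picked by the naming rule, 49 moved in opposite directions, and their log2 differences, U87 minus U373, are given in brackets. Genes given only as examples or as later observations, such as SRM, MAD2L1, BUB3 and STC1, are not in this count. The naming rule itself picked 10 genes of each opposite pattern, so this count reflects the choice of genes. Over all genes tested the share was 9.53%. Genes that rose in U87 and fell in U373 were CCL2 (5.12), CADM1 (3.58), SDC3 (3.43), ANK3 (3.25), IFI35 (2.80), RPS6KA5 (2.89), FAM129A (2.66), LRP1B (2.22), CTSO (2.15), GSAP (2.41), MAP3K14 (2.25), SEMA3A (2.11) and ATF5 (2.17). The same pattern was found for VLDLR (1.77), GATM (4.20), BTG2 (1.54), XPC (1.31), CDKN1A (1.26), B2M (1.04), NDUFA1 (0.33), EGLN3 (3.01), SLC2A1 (2.51), LDHA (1.18), COL11A1 (3.15), TIMP1 (1.03) and MAP2 (1.68). Genes that fell in U87 and rose in U373 were ARG2 (−1.75), ODC1 (−1.23), NOTCH3 (−4.41), PPARGC1B (−3.51), EVI2A (−3.50), PITPNM3 (−3.46), CEMIP (−2.66), FAM132B (−2.79), FERMT1 (−2.60), CREB5 (−3.07) and NFIA (−2.75). They were joined by TFPI (−2.06), EIF2B3 (−0.69), ORC6 (−0.92), MT-ND1 (−0.51), ATP5F1 (−0.67), RPS25 (−0.59), TFEB (−1.17), CD63 (−0.57), COL4A2 (−2.32), MMP14 (−1.74), DUSP4 (−3.03) and SLC1A3 (−0.75). The cause of these differences was not tested.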

How the results depend on the processing

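Of the alternatives, the 1.5-fold test alone moved the counts beyond 1.5 times, to 840 genes higher in U87, 907 lower and 56 in opposite directions. Under the other scalings, pseudocounts, filters and variance models the counts stayed within 1.5 times: 3279 to 3844 genes were higher, 3863 to 4421 lower and 1232 to 1374 opposite, with the most higher and the fewest lower calls under TMM scaling (3844 and 3863). Leaving out 1 library gave 3354 to 3476 higher, 3984 to 4163 lower and 1178 to 1249 opposite. Same-numbered libraries of different groups did not deviate together, so replicate numbers were not used as pairs in the main fit. With a replicate block the counts were 3560, 4204 and 1314, and with a replicate block within each line 3515, 4135 and 1292. Of 195 named genes, 127 passed the 1.5-fold test and 14 lost their call in at least 1 of the 23 other settings on the log2 scale, most often MXD1 (14), CXCL12 (12), MX2 (10) and OAS2 (10). The sign of the difference reversed for 27 on the linear scale of the deposited values, where the U87 minus U373 differences were ASNS 1878, STC2 15954, ASS1 1844, MKI67 8121, CCND2 31.8, CEBPG −956, CTH 569.8, SLC6A9 −446, CARS 226, POLA2 −64.5, CDC45 −45.6, GDF15 8381 and TNFAIP6 7.38. The others were NDUFA8 −4.30, CA12 2367, ADM 142, ALDOC 105, EBP 106, HMOX1 4953, MT1X 18.8, XBP1 1523, SEL1L 2593, GUSB 168, CYR61 −3509.6, HEY1 −746, BID 24.4 and CD68 −3288. Counts of the interferon list called higher ranged from 7 to 16. The planned count models were not run, since the deposited values did not all return to whole reads. Depth limits genes near 0, for which a count of 0 allows up to 3 reads per group.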

Other observations

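Relatives of some genes described above were chosen after their values were seen. STC1, which encodes the second stanniocalcin beside STC2, had 19543, 18526 and 19596 with BCT-100 and 12551, 13893 and 12189 with PBS in U87, and 626, 566 and 593 with BCT-100 and 3029.7, 3171 and 3131 with PBS in U373. It was higher with BCT-100 in U87 and lower in U373, without overlap within a line, with a difference of 2.96 (SE 0.06, adjusted p = 1.19e-17) in limma, whereas that of STC2 was −3.60. RGS16, which limits G protein signals, had 178, 141 and 139 with BCT-100 and 0 in each library with PBS in U87, and 17.0, 19.9 and 19.5 with BCT-100 and 0.921, 0 and 0.909 with PBS in U373, with a difference of 3.57 (SE 0.57, adjusted p = 2.11e-05). U87 with PBS was listed at 0, so that value depends on the pseudocount. The cyclin D genes CCND1 and CCND3 had differences of −0.82 and −0.62, the same sign as CCND2 at −5.93 and much smaller.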
